A study of Mus musculus with 6 samples.

Results

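The genes described here encode the MHC class I system of the mouse: the classical heavy chains H2-K1 and H2-D1, the non-classical heavy chains H2-Q4, H2-Q6, H2-Q7, H2-T22, H2-T23 and H2-M3, the shared light chain B2m (beta-2 microglobulin) and the transactivator Nlrc5. They were chosen by name, as 10 of the 33157 rows of a raw count table, and all 10 passed the filter on low counts. The cells were group 3 innate lymphoid cells (ILC3s), lymphocytes resident in the gut mucosa, sorted from wild-type mouse small intestine as lineage-negative, KLRG1-negative cells carrying CD45, CD90.2 and CD127. Both groups were cultured for 4 h with recombinant mouse interferon-γ (IFN-γ) at 20 ng/mL. The ILC3_Ctrl libraries had no further agent, and the ILC3_Igf1 libraries also had insulin-like growth factor 1 (IGF-1) at 200 ng/mL. Each group had 3 libraries. No culture without IFN-γ was analysed here, so the data show class I transcripts under IFN-γ with and without IGF-1 and not their induction. The labels name no strain, age or pooling of animals. They also do not say that replicates are separate mice or cultures, so each p-value reflects the spread among 6 libraries, part of which may be technical.

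Total counts were 32573713 to 39206449 per library. The ILC3 markers Il7r, Thy1, Kit and Il23r were present in every library, and the 12 listed markers summed to 6526 to 6795 CPM (counts scaled for library size, with TMM factors) in controls and 6884 to 7596 with IGF-1. Markers of other cells were low. T cell markers summed to 106 to 132 CPM and 121 to 156 CPM. Over all libraries, Lat was at 59.7 to 110 CPM and Cd4 at 18.3 to 35.2 CPM. Cd3g was at 4.30 to 15.6 CPM, Cd3d at 1.42 to 6.35 CPM and Cd3e at 0.538 to 1.21 CPM. The 8 NK and ILC1 markers summed to 37.4 to 50.9 and 36.8 to 49.3 CPM, and the 12 myeloid markers to 16.8 to 21.1 and 19.2 to 21.0 CPM. Of the NK and ILC1 markers, Klrb1c was at 26.7 to 42.5 CPM over all libraries and Eomes at 0 counts. Prf1 was at 1.43 to 2.58 CPM in controls and 4.09 to 6.79 CPM with IGF-1 (edgeR adjusted p = 0.204). The 8 ILC2 markers summed to 34.8 to 43.2 and 27.4 to 67.5 CPM, and the 9 stromal and endothelial markers to 104 to 126 and 92.6 to 101 CPM. Epithelial markers summed to 33.7 to 48.7 CPM in controls and 16.4 to 23.9 with IGF-1, nearly all from Epcam, while Krt20, Vil1, Fabp1, Fabp2, Lgr5 and Cdh1 were under 1 CPM in every library. Epcam was lower with IGF-1, with groups that did not overlap (log2 fold change -1.13, SE 0.20, edgeR adjusted p = 0.0442). It was the 1 called of 5 tested epithelial markers, where 0.267% of all genes were called lower. B and plasma cell markers reached 606 CPM in control replicate 3 because Jchain was at 519 CPM there, against 0.103 to 0.209 CPM in the other libraries. The 13 mitochondrially encoded mRNAs in the table summed to 15780 to 20429 CPM in controls and 19677 to 23263 CPM with IGF-1. Of these mRNAs 12 were positive, with a median log2 fold change of 0.16 and 0 called by edgeR (2 higher at an unadjusted p under 0.05, against 5.58% of all genes). The part of these cells and transcripts in the class I values was not tested.

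Class I molecules are surface complexes of a heavy chain, beta-2 microglobulin and usually a peptide. Classical heavy chains show peptides from the cell's own proteins to CD8 T cells and are ligands of inhibitory receptors on NK cells. Non-classical chains have narrower tasks: H2-T23 (Qa-1) shows leader peptides of other class I chains to the receptor CD94-NKG2A, H2-M3 presents N-formylated peptides of bacteria and mitochondria, H2-Q6 and H2-Q7 encode Qa-2 molecules, and H2-T22 is a ligand of some γδ T cell receptors. IFN-γ raises class I transcription in part through IRF1, and NLRC5 is itself an IFN-γ target that joins a protein assembly on the X and Y boxes of class I promoters.

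The promoter sequences are printed to show which of these elements each gene has, as not every gene has all of them. RefSeq's table for GRCm38.p6 held a window of 250 bases before to 50 after the annotated start for 9 of the 10 genes, and 1 window per gene was used (H2-K1 had 2, of which that listed first was taken). The counts were made on another build, GRCm39, so the windows serve only as sequence. Shown 5′ to 3′ on each gene's strand are the stretches from 10 bases before the first kappa B or interferon element to 10 bases after the last CCAAT box. They lie at chr17:34000325-34000468 (H2-K1, minus strand), chr17:35262913-35263055 (H2-D1, plus), chr17:37270123-37270227 (H2-M3, plus), chr17:36042791-36042943 (H2-T22, minus), chr17:36032739-36032835 (H2-T23, minus) and chr2:122147538-122147648 (B2m, plus). Capitals mark matches to the motifs named below, on either strand.
H2-K1: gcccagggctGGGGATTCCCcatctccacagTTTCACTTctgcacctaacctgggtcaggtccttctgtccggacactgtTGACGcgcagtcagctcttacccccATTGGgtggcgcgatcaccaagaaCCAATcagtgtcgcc
H2-D1: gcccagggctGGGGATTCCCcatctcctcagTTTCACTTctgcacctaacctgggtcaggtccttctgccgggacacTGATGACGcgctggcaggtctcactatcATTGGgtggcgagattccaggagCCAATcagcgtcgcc
H2-M3: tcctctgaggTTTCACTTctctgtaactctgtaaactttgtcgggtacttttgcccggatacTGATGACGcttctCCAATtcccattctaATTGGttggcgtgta
H2-T22: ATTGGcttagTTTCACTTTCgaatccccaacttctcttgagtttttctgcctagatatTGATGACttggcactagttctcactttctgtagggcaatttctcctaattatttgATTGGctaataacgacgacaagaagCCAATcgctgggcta
H2-T23: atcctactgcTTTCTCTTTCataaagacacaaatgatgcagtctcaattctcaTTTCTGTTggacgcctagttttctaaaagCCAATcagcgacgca
B2m: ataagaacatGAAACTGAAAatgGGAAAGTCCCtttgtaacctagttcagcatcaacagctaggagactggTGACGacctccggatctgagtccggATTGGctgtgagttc

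The short interferon regulatory factor (IRF) element AANNGAAA was in all 9 windows, against 23.9% of the 32851 windows of the table. The longer interferon-stimulated response element core (GAAA, any 2 bases, GAAA), which contains that element, was in 3 of the 9, those of B2m, H2-T22 and H2-T23, against 3.44% of all windows. The CCAAT box, the Y box of class I promoters, was in all 9 against 37.4%. In the H2-K1 window taken, the second CCAAT box was at 9 to 13, after the annotated start, where that of H2-D1 was at -53 to -49. The IRF element of H2-K1 was likewise nearer the start, at -90 to -83 against -150 to -143 in H2-D1. The X2 core TGACG was in 7 of 9 against 20.8%, absent from the windows of H2-Q6 and H2-T23. In H2-T22 the match was at -22 to -18, after all its CCAAT boxes and outside the printed stretch. In H2-Q4 the matches were at -73 to -69, between its CCAAT boxes, and at 32 to 36. The 7 is therefore a count of windows with these letters and not of X boxes. A kappa B motif (GGG, any 2 bases, TTTCC) was in B2m and H2-Q4 (1.63% of all windows). Both further motifs were added after the sequences were seen: a kappa B form, the first run of capitals in the H2-K1 and H2-D1 lines, was in H2-K1, H2-D1, H2-Q6 and H2-Q7 (0.107% of all windows), and TGATGAC, which can overlap the X2 core, was in H2-D1, H2-Q4, H2-Q6, H2-Q7, H2-T22 and H2-M3 (3.23%). From the first base of the IRF element to the first base of TGATGAC there were 46 bases in H2-D1, H2-Q4, H2-Q6 and H2-Q7, 48 in H2-T22 and 52 in H2-M3. H2-T23 had a second IRF element and 1 CCAAT box and matched neither X motif. Some of the 9 windows are alike in sequence: those of H2-D1 and H2-Q6 were 79.9% identical, and those of H2-Q6 and H2-Q7 shared a run of 67 bases. Others were less alike, such as H2-K1 and H2-T22 at 41.5%. The counts of windows with a motif are therefore not counts of independent sequences. A match is a description of these letters and no evidence of binding.

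**Figure D1:**
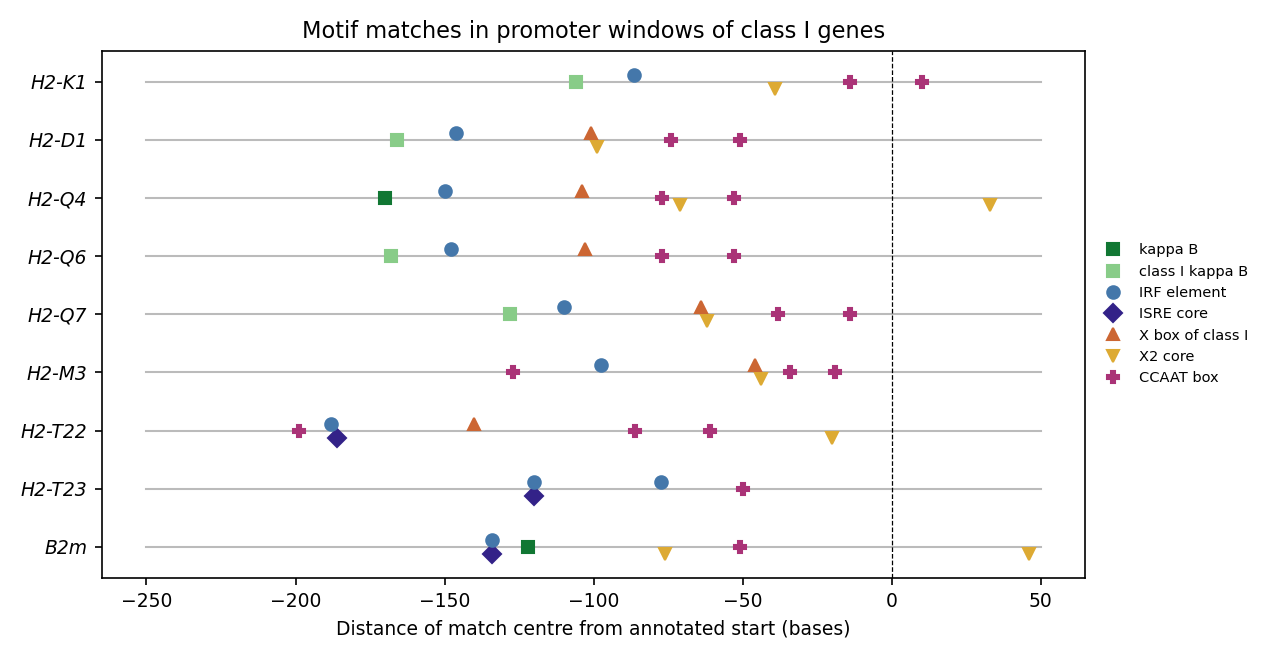
Motif matches along the promoter windows of 9 class I genes, with the distance of each match's centre from the annotated start in bases on the x axis and 1 line per gene. H2-K1, H2-D1, H2-Q4, H2-Q6 and H2-Q7 each have a kappa B match, then an interferon element, then CCAAT boxes, and H2-T22, H2-T23 and B2m carry the longer interferon element.

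The comparison asked how IGF-1 changes these transcripts in ILC3s exposed to IFN-γ. The mean of 9 of the 10 genes was lower with IGF-1, with H2-T22 the exception, and the differences were small: the median log2 fold change was -0.30, and the range was -0.57 to 0.35. In sorted bulk cells, fewer cells with a transcript and less transcript per cell cannot be told apart. Over all 13483 genes tested the median was -0.01, and 51.3% were negative. In edgeR's quasi-likelihood test 0 of the 10 class I genes passed an adjusted p of 0.05, where 0.497% of all genes did (0.267% lower and 0.230% higher). At an unadjusted p under 0.05 there were 4 lower (H2-T23, Nlrc5, H2-D1 and H2-K1), against 6.24% of all genes, and 1 higher (H2-T22), against 5.58%, with 11.8% in either direction. In 3 of the 10 (H2-K1, H2-D1 and H2-T23) all libraries with IGF-1 lay below all controls, as they did for 9.17% of all genes, and in 0 of the 10 they lay above, against 8.81%. DESeq2 called 2 of the 10, H2-T23 and Nlrc5, both lower, where 2.01% of the genes given an adjusted p were called lower. With the replicate number as a block DESeq2 called H2-T23 (1.65% of genes lower). No class I gene was called by limma-voom (0.712% of genes called), nor by edgeR with the block (0.0593%) or with RLE, upper quartile or library size scaling (0.504%, 0.490% and 0.452%). For 1 gene, the smallest p that exact permutation of 3 and 3 libraries allows is 0.1 (two-sided).

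**Figure D2:**
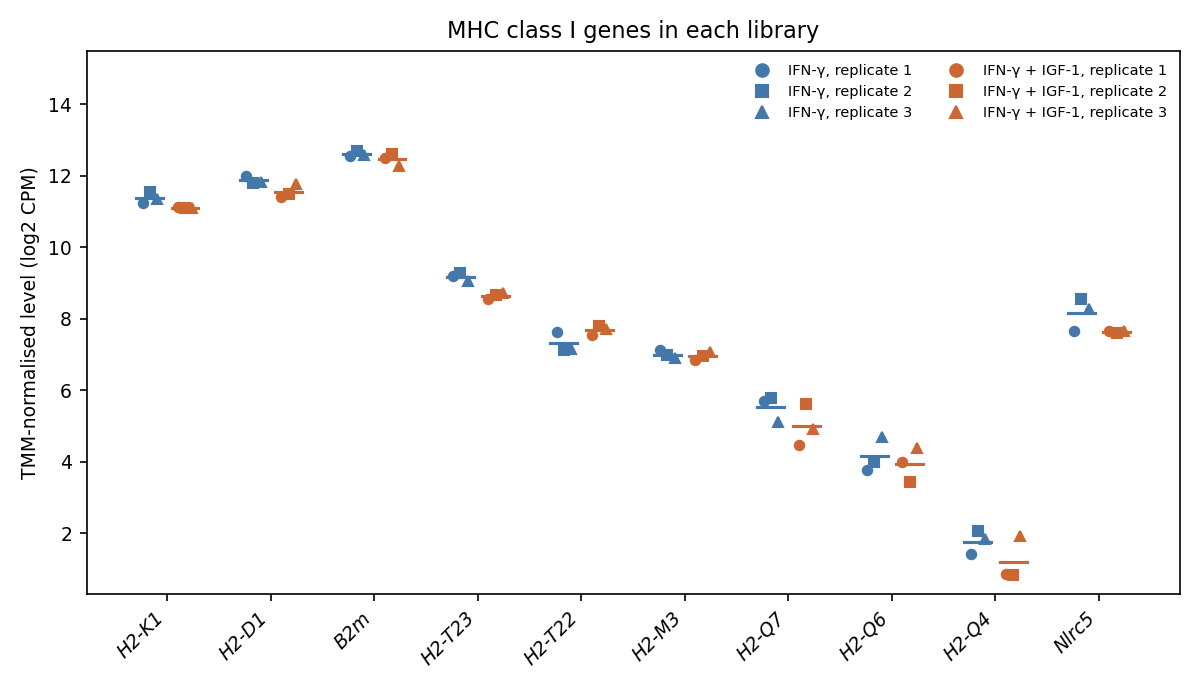
Log2 CPM of the 10 class I genes in each of the 6 libraries, with IFN-γ alone in blue and IFN-γ plus IGF-1 in orange, and a bar at each group's mean. The groups are fully apart for H2-K1, H2-D1 and H2-T23, and control replicate 1 lies with the IGF-1 libraries for Nlrc5 and H2-T22.

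H2-K1, one of the classical heavy chains, was at 2403, 3015 and 2590 CPM in control replicates 1 to 3 and at 2232, 2201 and 2181 CPM with IGF-1. The IGF-1 libraries were close together (CV 1.18%) and all below the lowest control. The log2 fold change was -0.28 (SE 0.11, 95% interval -0.52 to -0.04, edgeR adjusted p = 0.338), a difference of -17.4%, and -0.18 without control replicate 2. H2-D1, the other classical chain, was at 4104, 3585 and 3664 CPM in controls and 2727, 2885 and 3466 CPM with IGF-1. Its groups did not overlap either, with IGF-1 replicate 3 just under the lowest control. This gave a log2 fold change of -0.32 (SE 0.12, 95% interval -0.58 to -0.07, edgeR adjusted p = 0.294). The ratio of H2-D1 to H2-K1 counts was 1.44 ± 0.260 in controls and 1.37 ± 0.192 with IGF-1 (SD, n = 3 each), with overlapping groups.

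B2m, the light chain that every class I complex needs to reach the surface, was the most abundant of the 10. Its levels were 5993, 6589 and 6110 CPM in controls and 5791, 6221 and 5006 CPM with IGF-1. The groups overlapped, and the lowest value was IGF-1 replicate 3. The log2 fold change was -0.14 (SE 0.10, 95% interval -0.36 to 0.09, edgeR adjusted p = 0.673). With IGF-1 replicate 3 left out it was -0.05, with control replicate 2 left out -0.09, and with IGF-1 replicate 2 left out -0.21. The 8 heavy chains together gave 1.25, 1.15 and 1.16 counts per B2m count in controls and 0.981, 0.948 and 1.29 with IGF-1. That ratio was lower in IGF-1 replicates 1 and 2 and highest of all in IGF-1 replicate 3.

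Nlrc5, the class I transactivator, had the largest negative log2 fold change of the 10. It was at 203, 376 and 311 CPM in controls and 202, 193 and 204 CPM with IGF-1. The IGF-1 libraries were nearly equal (CV 2.80%), the controls were spread (CV 29.5%), and control replicate 1 lay at the level of the IGF-1 libraries. Its log2 fold change was -0.57 (SE 0.19, edgeR adjusted p = 0.265), a difference of -32.7% with a 95% interval of -49.9 to -9.44%. Without control replicate 1 it was -0.78 with an edgeR adjusted p of 0.0465 (0.220% of genes were called lower in that fit), and over the 15 alternative fits the adjusted p ranged from 0.00954 to 0.626. Without control replicate 2 the log2 fold change was -0.36. Nuclear noncoding RNAs followed the same order of control libraries: Neat1 was at 716, 1309 and 1195 CPM and Malat1 at 732, 1203 and 1152 CPM in control replicates 1 to 3. In IGF-1 replicates 1 to 3 Neat1 was at 718, 600 and 914 CPM (CV 21.3%) and Malat1 at 732, 438 and 996 CPM (CV 38.7%). There they were more spread than Nlrc5. The listed nuclear RNAs summed to 1576 to 2858 CPM in controls and 1159 to 2207 CPM with IGF-1. Their part in the Nlrc5 values was not tested.

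By the root mean square difference of centred log2 CPM over the 6 libraries, the genes nearest to Nlrc5 among 8360 candidates of at least 10 CPM were Ptbp2 (0.08), Cnn3, Stat2, Dnttip1 and Cemip2 (each 0.10). Ptbp2, the nearest, was at 35.5, 58.5 and 49.0 CPM in controls and 36.0, 30.2 and 33.8 CPM with IGF-1. Stat2, a transcription factor of the response to type I interferon, was at 133, 202 and 185 CPM in controls and 113, 123 and 116 CPM with IGF-1. In all 5 genes, as in Nlrc5, control replicate 1 was the lowest control, so the likeness rests in part on that library.

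H2-T23, the Qa-1 heavy chain, came closest to the threshold. It was at 585, 618 and 528 CPM in controls and at 379, 404 and 421 CPM with IGF-1. The groups were well apart, with a gap larger than the spread within either. The difference on the log2 scale was -0.53 (SE 0.11, 95% interval -0.78 to -0.27, edgeR adjusted p = 0.0938), a difference of -30.5%, and the gene ranked 125 by p among 13483. At an adjusted p of 0.1 it was the 1 class I gene called, where 0.645% of genes were called lower. It was past the threshold with DESeq2 (adjusted p = 0.000983), without a filter on low counts (0.0231, where 1.11% of genes were called lower) and with a stricter filter (0.0351, where 1.33% were). Its adjusted p ranged from 0.000983 to 0.409 over the 15 alternative fits, the highest without IGF-1 replicate 1. The genes nearest to H2-T23 by the same measure were Rnf31 (0.05), Stk19 and Usp31 (each 0.06), and Gsdmd and Cdk6 (each 0.07). Gsdmd, the pore-forming protein of pyroptosis, was at 110 to 112 CPM in controls and 76.0 to 82.4 CPM with IGF-1.

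H2-T22, a non-classical chain that binds no peptide, was the 1 class I gene with a positive estimate. It was at 199, 140 and 143 CPM in controls and 186, 221 and 208 CPM with IGF-1. Control replicate 1 lay among the IGF-1 libraries, so the groups overlapped. IGF-1 over control gave a log2 fold change of 0.35 (SE 0.16, 95% interval 0.00 to 0.70, edgeR adjusted p = 0.414). Without control replicate 1 it was 0.53 (adjusted p = 0.0967), and over the 15 alternative fits it stayed positive, from 0.26 to 0.53, with adjusted p from 0.0967 to 0.833. Its neighbour in sequence, H2-T10, which was not among the 10, was at 19.2, 20.9 and 19.6 CPM in controls and 31.2, 29.0 and 31.2 CPM with IGF-1. The H2-T10 groups were apart, with a log2 fold change of 0.61 (SE 0.16, edgeR adjusted p = 0.150). The coding sequences of H2-T22 and H2-T10 are 96.4% identical, and reads may have been shared between them. Summed into 1 feature, a choice made after seeing the data, they had a log2 fold change of 0.38 (SE 0.14, adjusted p = 0.320).

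H2-M3, which presents formylated peptides, was at 139, 126 and 120 CPM in controls and 114, 124 and 135 CPM with IGF-1. The ranges covered each other almost fully. The log2 fold change was -0.04 (SE 0.12, 95% interval -0.32 to 0.23, edgeR adjusted p = 0.937).

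The 3 H2-Q chains were the least abundant of the 10. H2-Q7 was at 52.4, 55.2 and 34.8 CPM in controls and 22.3, 49.0 and 30.4 CPM with IGF-1, and H2-Q6 at 13.6, 15.9 and 26.1 CPM and 16.0, 10.7 and 20.8 CPM. Both overlapped between groups, with log2 fold changes of -0.49 (SE 0.28) and -0.23 (SE 0.30). The division of counts between them varied: the ratio of H2-Q6 to H2-Q7 counts was 0.219 to 0.288 in control replicates 1 and 2 and IGF-1 replicate 2 and 0.685 to 0.749 in the other libraries. Their coding sequences are 93.1% identical. Summed into 1 feature they had a log2 fold change of -0.41 (SE 0.17, edgeR adjusted p = 0.379), with a smaller error than either alone. H2-Q4 was lowest, with 367 counts over the controls and 272 over the IGF-1 libraries, at 2.66, 4.18 and 3.56 CPM in controls and 1.80, 1.77 and 3.76 CPM with IGF-1 (log2 fold change -0.50, SE 0.48), and a change of either sign lies within its interval of -1.58 to 0.57. Single libraries moved these estimates: H2-Q7 was at -0.26 when IGF-1 replicate 1 was left out and at -0.85 when replicate 2 of that group was. H2-Q4 was at -0.32 with either of those libraries omitted, and its value became -0.96 when IGF-1 replicate 3 was dropped. H2-Q6 was at 0.10 with control replicate 3 omitted, and at -0.01 or -0.47 when IGF-1 replicate 2 or 3 was left out.

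**Figure D3:**
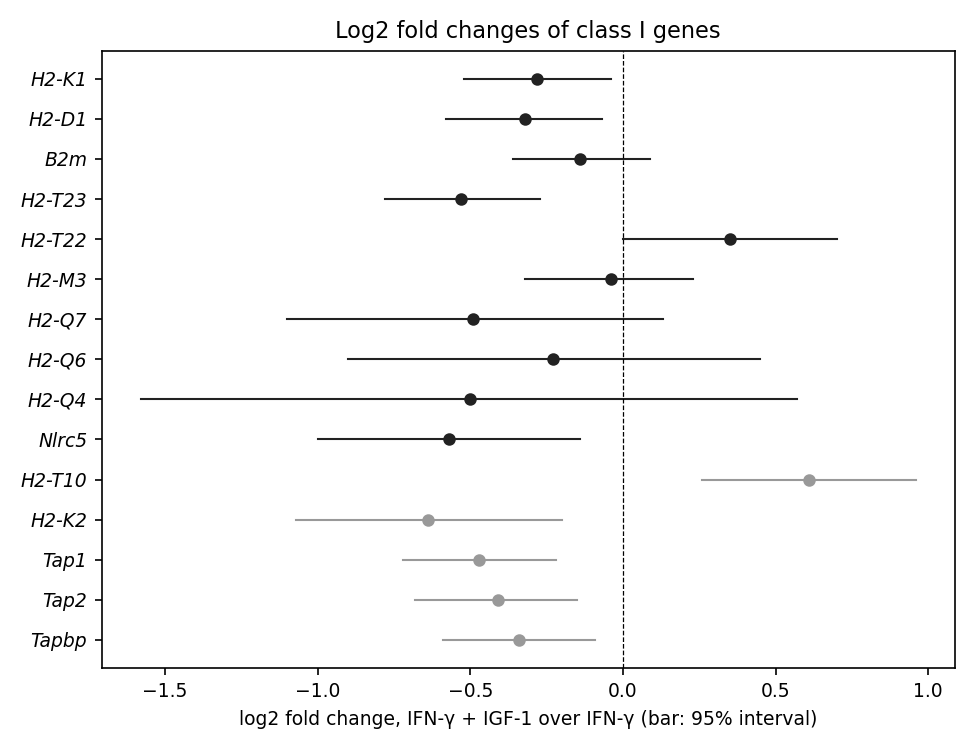
Log2 fold change (IGF-1 libraries over controls) for the 10 class I genes (black) and 5 related genes (grey), with 95% intervals as bars. H2-T22 and H2-T10 lie right of 0, most others left of it, and the intervals of H2-Q4, H2-Q6 and H2-Q7 are the widest.

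How far a read can be placed on 1 of these genes differs between them. Of all 50-base windows of a reference transcript (GENCODE M21, GRCm38), 0 of B2m or Nlrc5 occurred in a transcript of another gene, and for H2-M3 it was 0.576%. The share was 8.79% for H2-K1, 14.3% for H2-D1, 29.8% for H2-T23, 35.0% for H2-Q6, 39.2% for H2-Q4, 40.2% for H2-Q7 and 44.7% for H2-T22, of whose windows 37.9% occurred in H2-T10. The values of the H2-Q genes, H2-T22 and H2-T23 are therefore uncertain as to how reads were divided among copies. Mouse strains also carry different alleles of these genes, and the labels name no strain.

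Per length of that reference transcript, B2m led with 7245 ± 367 CPM per kb in controls and 6596 ± 716 with IGF-1 (SD, n = 3 each here and below). H2-D1 (1800 ± 133 and 1440 ± 185) and H2-K1 (1649 ± 194 and 1362 ± 15.9) followed and did not differ from each other beyond their spread. H2-T23 was next with 392 ± 30.9 and 273 ± 14.4 CPM per kb. H2-T22 (91.2 ± 18.9) and H2-M3 (89.2 ± 6.75) were level in controls, while with IGF-1 H2-T22 stood at 116 ± 10.0 and H2-M3 at 86.5 ± 7.30. Nlrc5 was at 39.1 ± 11.5 and 26.3 ± 0.773, H2-Q7 at 31.7 ± 7.39 and 22.6 ± 9.14, H2-Q6 at 8.89 ± 3.19 and 7.59 ± 2.42, and H2-Q4 at 1.93 ± 0.426 and 1.36 ± 0.636 CPM per kb. The levels of Nlrc5 and H2-Q7 overlapped in both groups.

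The composition of the heavy chain pool, the counts of the 8 heavy chains taken as shares of their sum, needs no scaling between libraries. H2-D1 made up 51.2 ± 3.66% of it in controls and 50.2 ± 3.00% with IGF-1, and H2-K1 36.1 ± 3.93% and 36.8 ± 2.83%, with overlapping groups (SD, n = 3 each). H2-T23 took 7.80, 8.18 and 7.43% in controls and 6.67, 6.84 and 6.51% with IGF-1. All IGF-1 libraries were below all controls. H2-T22 took 2.66, 1.86 and 2.02% in controls and 3.28, 3.76 and 3.22% with IGF-1, and here the groups did not overlap. H2-M3 took 1.74 ± 0.104% in controls and 2.07 ± 0.0481% with IGF-1, again without overlap. There were 0.341, 0.227 and 0.272 H2-T22 counts per H2-T23 count in controls and 0.493, 0.549 and 0.494 with IGF-1. These shares and ratios were examined after the values of the single genes were known and carry no test, and a ratio shows that 2 transcripts differed unequally and not which of them did.

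**Figure D4:**
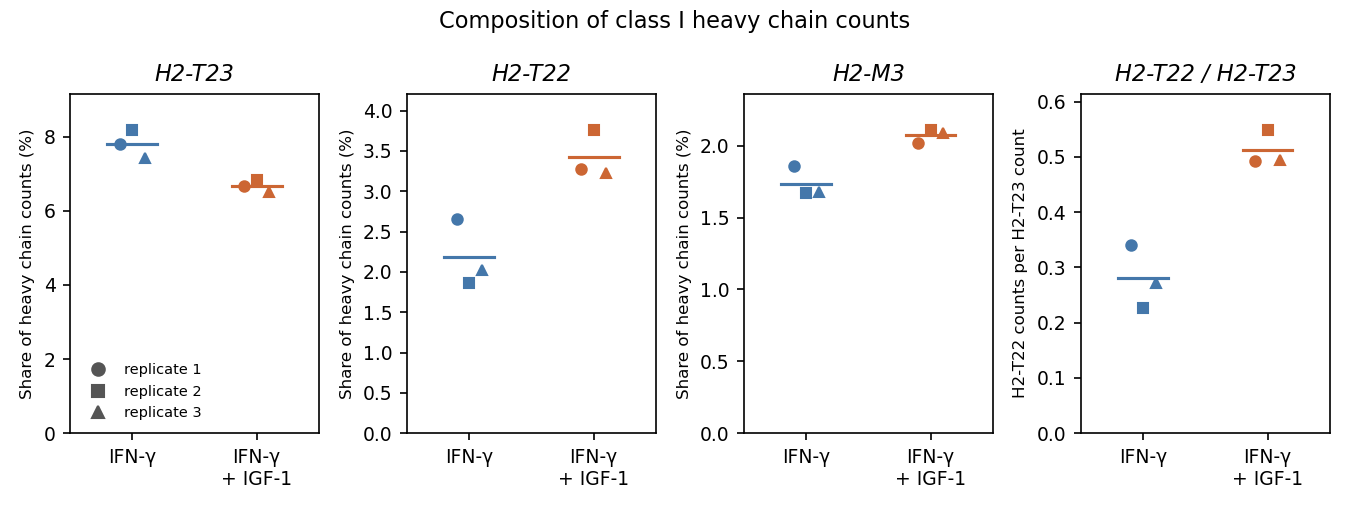
Shares of H2-T23, H2-T22 and H2-M3 in the summed counts of the 8 heavy chains (percent) and counts of H2-T22 per count of H2-T23, with 1 point per library and a bar at each group's mean. H2-T23 is lower in all 3 IGF-1 libraries, and the other panels are higher in all 3.

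In all, the 10 genes took 1.34 to 1.49% of all counts in controls and 1.16 to 1.20% with IGF-1.

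Other class I heavy chains of the MHC were mostly low. Of 33 listed, 22 were in the table, 14 of them under 1 CPM in every library, and 10 passed the filter, of which 6 were negative (median -0.18). None was called by edgeR, and at an unadjusted p under 0.05 there were 1 higher and 1 lower (5.58% and 6.24% of all genes). Besides H2-T10, H2-K2, a pseudogene next to H2-K1, had a small p: it was at 31.1 ± 5.18 CPM in controls and 20.0 ± 3.18 with IGF-1 (log2 fold change -0.64, SE 0.20, edgeR adjusted p = 0.217). H2-T24 had a log2 fold change of -0.58 (SE 0.30). Of 6 tested class I-like molecules outside the MHC 2 were negative (median 0.21), with 0 called by edgeR. At an unadjusted p under 0.05, 2 were higher, against 5.58% of all genes. Mr1, which presents vitamin B metabolites to MAIT cells, was at 9.74 to 19.8 CPM in controls and 18.8 to 26.6 CPM with IGF-1 (log2 fold change 0.70, SE 0.27, edgeR adjusted p = 0.328). Procr stood at 0.92 (SE 0.39) and H60b at -0.79 (SE 0.48).

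Among 14 genes listed for peptide supply and loading, edgeR called 0 and 7 were negative, with a median of -0.02. At an unadjusted p under 0.05 there were 4 lower and 1 higher (6.24% and 5.58% of all genes). The list also held Irgm1, an immunity-related GTPase and not a loading gene. Its log2 fold change of -0.15 (SE 0.10) is among the 7 negative and enters the median. The transporter subunits Tap1 (477 to 497 CPM in controls and 331 to 383 with IGF-1) and Tap2 (217 ± 0.793 and 163 ± 15.1 CPM) and tapasin, Tapbp (336 ± 17.2 and 265 ± 16.7 CPM), each had all IGF-1 libraries below all controls, as did 9.17% of all genes. Pdia3, a chaperone of the loading complex, was on the other side (599 ± 142 and 881 ± 50.5 CPM, log2 fold change 0.56, SE 0.16).

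Of 21 factors that act on class I promoters 15 were negative, with a median of -0.24. By edgeR 0 were called, and 8 were lower at an unadjusted p under 0.05, against 6.24% of all genes. Irf1, which binds the interferon element, was at 729 to 764 CPM in controls and 525 to 582 CPM with IGF-1 (log2 fold change -0.42, SE 0.11, edgeR adjusted p = 0.142). Irf2, a relative of Irf1, had a log2 fold change of -0.58 (SE 0.18). Rfx5, an X box factor, was low in both groups (5.83 ± 0.351 and 5.41 ± 1.43 CPM). Ciita, the class II counterpart of Nlrc5, had a log2 fold change of -0.65 (SE 0.21), close to that of Nlrc5. Of 10 genes of the IFN-γ receptor and its signalling 8 were negative (median -0.28), with 0 called by edgeR and 4 lower at an unadjusted p under 0.05 (6.24% of all genes), and the smallest p for Socs1 (154 ± 15.3 and 99.8 ± 12.5 CPM), Ifngr2 and Ptpn1. The 8 tested class II genes had a median of -0.17, with 5 negative, 0 called by edgeR and 0 at an unadjusted p under 0.05. H2-Eb1, a class II beta chain, had the smallest p, at -0.34 (SE 0.21), ahead of H2-DMa and H2-DMb1.

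A last list held receptors of the kind that read class I, but not all of its genes are known to bind it: Cd244a, Lilrb4b, Lair1 and Cd5, for example, are not established class I receptors. Of 23 listed 12 were tested, and 11 of these had a positive estimate (median 0.44), where 51.3% of all genes were negative. Some of the 11 were near the floor: Pirb (SE 1.39) and Lair1 (SE 1.28) were under 1 CPM in every library. Klre1 had means of 1.34 CPM in controls and 1.75 CPM with IGF-1 (SE 0.71). The signs of these estimates are uncertain, and they enter the median. At an unadjusted p under 0.05 there were 3 higher and 1 lower (5.58% and 6.24% of all genes). By edgeR 2 were called higher, against 0.230% of all genes, Cd160, which binds class I among other ligands, and Cd244a, whose ligand is CD48 and not class I. Cd160 was at 31.0, 22.3 and 32.8 CPM in controls and 67.1, 101 and 72.2 CPM with IGF-1 (log2 fold change 1.48, SE 0.20, edgeR adjusted p = 0.0201). Cd244a was at 24.5 ± 2.64 and 58.5 ± 6.33 CPM (SD, n = 3 each; 1.25, SE 0.16, edgeR adjusted p = 0.0143), and neither gene's groups overlapped. Klrc1, the NKG2A chain that binds Qa-1, was at 40.6, 36.0 and 38.4 CPM in controls and 47.6, 47.7 and 55.7 CPM with IGF-1 (log2 fold change 0.39, SE 0.14, edgeR adjusted p = 0.293), while its partner Klrd1 was at 6.74 ± 2.63 and 6.98 ± 1.48 CPM. All IGF-1 libraries were above all controls for Klrc1, as for 8.81% of all genes, and it did not pass the test. Lilrb4b was at -0.66 (SE 0.21). The CD8 co-receptor chain Cd8a had 61 counts over the controls and 46 over the IGF-1 libraries, nearly all in control replicate 3 (1.48 CPM) and IGF-1 replicate 2 (1.25 CPM), and did not pass the filter. Among 8 tested genes of class I turnover and trafficking 4 were negative (median 0.01), with 0 called by edgeR. At an unadjusted p under 0.05, 2 were higher and 1 lower (5.58% and 6.24% of all genes). They were Bcap31 (0.36, SE 0.12) and Bcap29 (0.40, SE 0.13), chaperones of export from the endoplasmic reticulum, on the positive side and the ubiquitin ligase Marchf8 at -0.46 (SE 0.20).

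**Figure D5:**
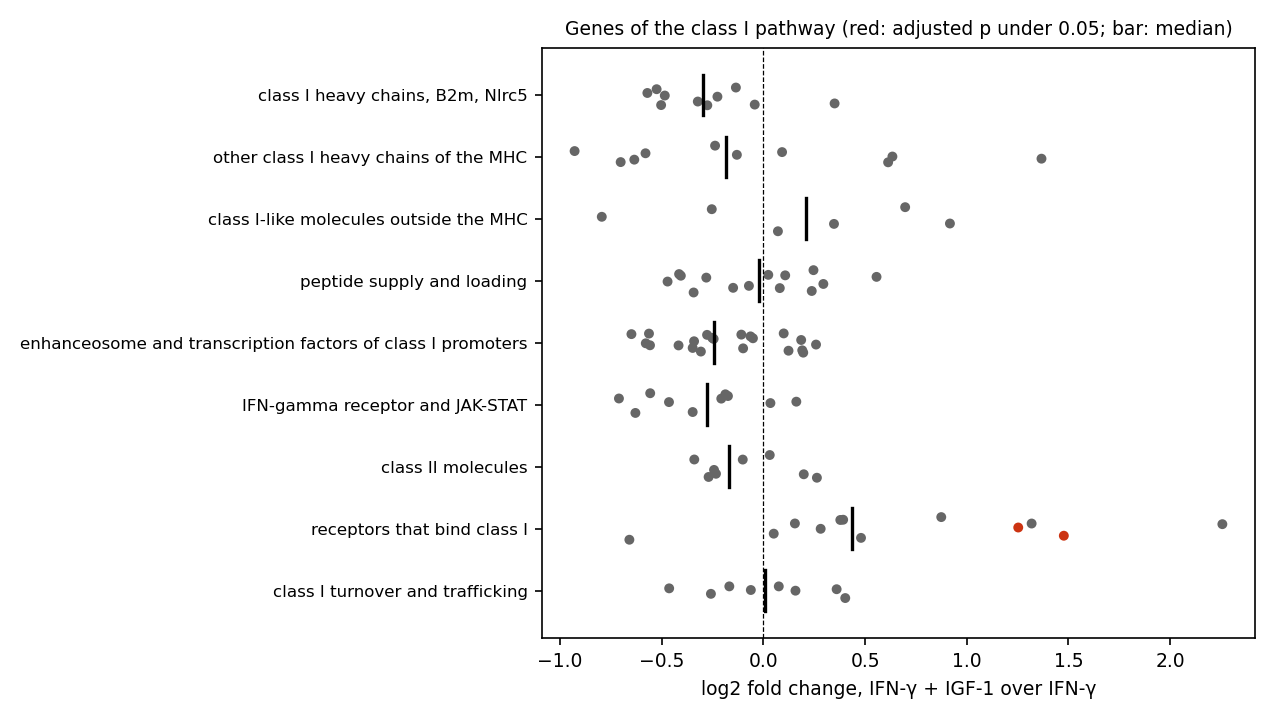
Log2 fold change of every tested gene of the class I pathway by list, 1 point per gene, with the median as a bar and genes with an adjusted p under 0.05 in red. The 2 red points are Cd244a and Cd160 among the receptors.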

How the data were processed

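The authors deposited 1 table of raw counts by gene symbol, with 1 column for each library. The submitters' processing notes list featureCounts 1.5.3, SAMtools 1.15.1, HISAT2 2.2.1 and fastp 0.23.2, and build GRCm39. The SMART-Seq HT kit was used, per the labels. Annotation release, strand setting and the treatment of multi-mapping reads: not given in the sources used here. The genes and lists were chosen with earlier results of these data known. Named genes were the 10 class I genes, up to 3 members per pathway list with the smallest p, 10 fixed pathway genes (not all are reported here), the most abundant or defining markers, and the 5 genes nearest to Nlrc5 and to H2-T23 (at least 10 CPM, predicted gene models left out, prior count 2). A few further genes (Malat1, Neat1, Epcam, Jchain, Cd3d, Cd3g, Cd4, Prf1, Irgm1) were named after their values were seen.

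A filter by group (edgeR's filterByExpr, at least 10 counts and 15 in total) left 13483 genes. The test was edgeR 4.0.16 in R 4.3.3 with TMM, glmQLFit and glmQLFTest, a model of group alone, and adjustment by Benjamini-Hochberg over all genes tested, at 0.05. The SE is the log2 fold change divided by the square root of F. Alternatives were the replicate number as a block, other scalings, DESeq2 1.42.0, limma-voom (limma 3.58.1), other filters and thresholds, each library left out, and summed copies. No protein sequences were used, so copies were judged by coding sequence. The test was tested on simulated data. Libraries within a group differed by more than sampling noise (chi-square per degree of freedom 28.8 to 62.1). Reads carried no molecular identifiers, so counts are not counts of molecules.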

Additional observations from a re-analysis of the deposited data

How the results depend on the processing

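The number of genes called among all tested was 67. It was 8 with the replicate block, 427 with DESeq2, 369 with DESeq2 and the block, 429 with no filter, 178 with the stricter filter (10 CPM in 3 libraries), 144 at an adjusted p of 0.1 and 2 at 0.01, and 0 to 55 with each library left out. The number of class I genes called was 0, and it was 2 with DESeq2 and with no filter (H2-T23 and Nlrc5), 1 with DESeq2 and the block, with the stricter filter and at 0.1 (H2-T23), and 0 to 1 with each library left out (Nlrc5 without control replicate 1). It was 0 with the replicate block in edgeR, RLE, upper quartile and library size scaling and limma-voom. The number with a negative log2 fold change was 8 or 9 in every fit. With each library left out, H2-Q6 ranged from -0.47 to 0.10, positive when control replicate 3 was omitted, and H2-M3 from -0.10 to 0.02, positive when control replicate 1 (0.02) or IGF-1 replicate 1 (0.01) was omitted. The other 8 genes kept their sign in every fit that tested them, H2-Q4 being removed by the stricter filter. No scaling moved the median of all genes by more than 0.03. No pairing of libraries by replicate number was visible in the counts: deviations of same-numbered libraries from their group means correlated at -0.05, 0.00 and 0.06. For 1 of the 3 numbers the best match was its own partner. These correlations cannot show whether same-numbered libraries share a mouse or a sort, which the labels do not say. Summing H2-T22 with H2-T10 or H2-K1 with H2-K2 was added after seeing the data. The causes of the changed counts were not tested.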
